A study of Mus musculus with 25 samples.

Results

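Hypochlorous acid (HOCl), the oxidant that neutrophil myeloperoxidase makes from chloride and hydrogen peroxide, had been given to RAW 264.7 cells, an established mouse macrophage-like line derived from an Abelson virus-induced tumour, and the enzymes by which macrophages make inflammatory mediators were examined. The members were 9 genes named by symbol: Ptgs2, Ptgs1, Ptges, Pla2g4a and Alox5ap of the prostaglandin and leukotriene routes, Acod1 (also known as Irg1) of the itaconate route, and Nos2, Ass1 and Arg1 of the nitric oxide and arginine routes. Of the 18193 genes that have a probe set of their own symbol alone, 8 are members, with 11 such probe sets among 45037 tested. One further probe set carries Ass1 together with the predicted gene Gm5424. Ptgs1 has no probe set in the probe annotation used here and was not analysed here. Each gene was represented by its brightest probe set over all 25 arrays.

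Cultures were exposed over 6 h in serum-containing medium. The lowest doses were 0.14, 0.35 and 0.7 mM HOCl, the middle ones 1.4 and 2.1 mM and the highest 2.8 and 3.5 mM, and controls had 0 mM. All of them, the 0 mM controls included, were of the same untransfected line in the same medium. There were 4 arrays at 0 mM and 3 at each other dose, 25 in all, and the design text calls the replicates biological. Each array read the RNA of a whole culture, so fewer expressing cells and less RNA per cell cannot be told apart. Values are log2 signals from which each array's median has been taken, so that 0 is the median probe set of the array and 1 unit is a 2-fold difference. A signal below 0 is low on this scale, but 0 is no detection limit.

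Cyclooxygenase 2 (Ptgs2) turns arachidonic acid, which phospholipase A2 (Pla2g4a) frees from membranes, into prostaglandin H2, and prostaglandin E synthase (Ptges) makes prostaglandin E2 from it. The Alox5ap product, FLAP, presents arachidonic acid to 5-lipoxygenase for leukotriene synthesis. Acod1 makes itaconate from cis-aconitate, inducible nitric oxide synthase (Nos2) makes nitric oxide from arginine, argininosuccinate synthase (Ass1) helps to rebuild arginine from citrulline, and arginase 1 (Arg1) consumes arginine. In macrophages Ptgs2, Acod1 and Nos2 are known as genes switched on by microbial products and cytokines through NF-kB and other factors, while Arg1 is known from alternatively activated macrophages.

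The 250 bases before the start of Ptgs2, Acod1 and Ptges are shown because these genes were high on largely the same arrays. They are from RefSeq on GRCm38.p6, 5′ to 3′ on the strand of the gene, at chr1:150099781-150100030 (plus strand), chr14:103046762-103047011 (plus strand) and chr2:30903298-30903547 (minus strand). Capitals mark the match to a searched motif.
Ptgs2: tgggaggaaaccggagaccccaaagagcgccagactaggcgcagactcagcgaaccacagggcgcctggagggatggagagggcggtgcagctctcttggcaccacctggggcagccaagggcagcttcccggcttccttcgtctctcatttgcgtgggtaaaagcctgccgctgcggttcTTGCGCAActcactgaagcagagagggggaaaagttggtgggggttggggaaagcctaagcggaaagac
Acod1: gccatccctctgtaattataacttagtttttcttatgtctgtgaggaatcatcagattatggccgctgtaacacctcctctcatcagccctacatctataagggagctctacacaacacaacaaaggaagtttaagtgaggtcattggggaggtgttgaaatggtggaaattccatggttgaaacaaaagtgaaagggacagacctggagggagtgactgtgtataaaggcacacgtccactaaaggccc
Ptges: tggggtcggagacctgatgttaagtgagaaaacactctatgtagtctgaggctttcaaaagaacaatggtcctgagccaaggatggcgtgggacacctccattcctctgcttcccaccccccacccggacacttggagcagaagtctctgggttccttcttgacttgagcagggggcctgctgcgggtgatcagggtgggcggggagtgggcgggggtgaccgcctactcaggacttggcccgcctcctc
Both strands were searched for 6 motifs: the NF-kB consensus, the C/EBP-type TTGCNNAA, the CRE-type TGACGT, the AP-1-type TGANTCA, the interferon-response-type GAAANNGAA and the antioxidant-response-type TGACNNNGC. The match found was a C/EBP-type TTGCGCAA, 69 to 62 bases before the start of Ptgs2, and 9.57% of the 32841 windows of this length hold that motif. The windows of Acod1 and Ptges hold none of these letters. The motifs were present in 7.25% (NF-kB), 6.47% (CRE), 6.75% (AP-1), 7.13% (interferon response) and 10.2% (antioxidant response) of all windows. Of the 9 members 6 have a window in the table used here.

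Before the members are described, arrays that stand apart are given. The mean of 8 poly-A spike-control probe sets, read from RNA added to the samples, lay between 0.62 and 1.12 on 11 arrays and between 1.75 and 2.39 on 14. The low level comprised all arrays of 0 and 0.14 mM, replicates 1 and 2 of 0.35 mM and replicates 1 and 2 of 0.7 mM, so doses from 1.4 mM lay at the high level throughout. All 10 macrophage markers were above 0 on every array. Of 14 measured markers of other cell types, Ncr1, Col1a1, Col3a1, Mpo and S100a9 were below 0 on all 25 arrays, and Cd3e, Epcam, Krt5 and Flt3 were above 0 on all 25, between 0.28 and 1.73. Pecam1, Cdh5, Krt18 and Elane lay between -0.96 and 0.23, and S100a8 ranged from -0.55 to 4.18. Their summed linear level was 13.9 to 15.6 at 0 mM and 29.2 to 34.5 at 0.35 mM, and without S100a8 it was 13.3 to 14.5 and 14.3 to 16.4. Actin 3′ minus 5′ signal, a sign of RNA quality, ranged from 0.12 to 0.68 and is given beside Acod1. The same signal of Gapdh was 0.355 on replicate 1 of 0 mM and between -0.113 and -0.0084 on the other arrays. That control array also had the lowest actin reading (0.12) and the highest Acod1 of the controls (3.61).

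Ptgs2, Acod1, Nos2 and Ptges were higher at 0.35 mM, were not called at 0.7 mM, and were partly higher again at 1.4 to 2.8 mM, whereas at 3.5 mM no member was called. An adjusted p under 0.05 in limma's moderated test, with Benjamini-Hochberg adjustment over all 45037 probe sets, is named a call here. The steps from 0.35 to 0.7, from 0.7 to 1.4 and from 1.4 to 2.1 mM had 0 calls over all probe sets. From 0.35 to 0.7 mM limma's adjusted p was 0.671 for Ptgs2, 0.698 for Acod1, 0.63 for Nos2 and 0.719 for Ptges. There 5 members had an unadjusted p under 0.05, as had 2990 of all 45037 probe sets. The fall and the second rise were thus not called as steps. At 0.35 mM 4 of the 8 measured members were higher and 0 lower, beside 1.71% of all probe sets higher and 4.72% lower. The higher calls were 26.6% of all calls at that dose, and 37.4% after quantile normalization. At 2.1 mM 3 members (Ptgs2, Acod1 and Ptges) were higher and 0 lower, beside 7.26% and 6.09% of all probe sets.

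Between and beyond these doses the counts were smaller. At 1.4 mM 1 member (Ptgs2) was higher and 0 lower, beside 4.39% and 3.43% of all probe sets. At 2.8 mM 1 member (Ptgs2) was higher and 1 (Pla2g4a) lower, beside 5.64% and 6.26%. limma called 0 members at 0.14, 0.7 and 3.5 mM. There 0, 1 and 0 had an unadjusted p under 0.05, beside 4009, 5136 and 11423 of all 45037 probe sets. Of all probe sets 0.00444% were called higher and 0% lower at 0.14 mM, and 0.12% and 0.0133% at 0.7 mM. At 3.5 mM these shares were 3.93% and 5.4%. The F test over all doses called 5 members (Ptgs2, Acod1, Nos2, Pla2g4a and Alox5ap), beside 24.7% of all probe sets.

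Median log2 differences of the 8 members from 0 mM were 0.58 at 0.35 mM and 0.41 at 2.1 mM, against 0.03 over all probe sets at either dose. At 3.5 mM the members' median was 0.13 and that of all probe sets 0.08.

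**Figure D1:**
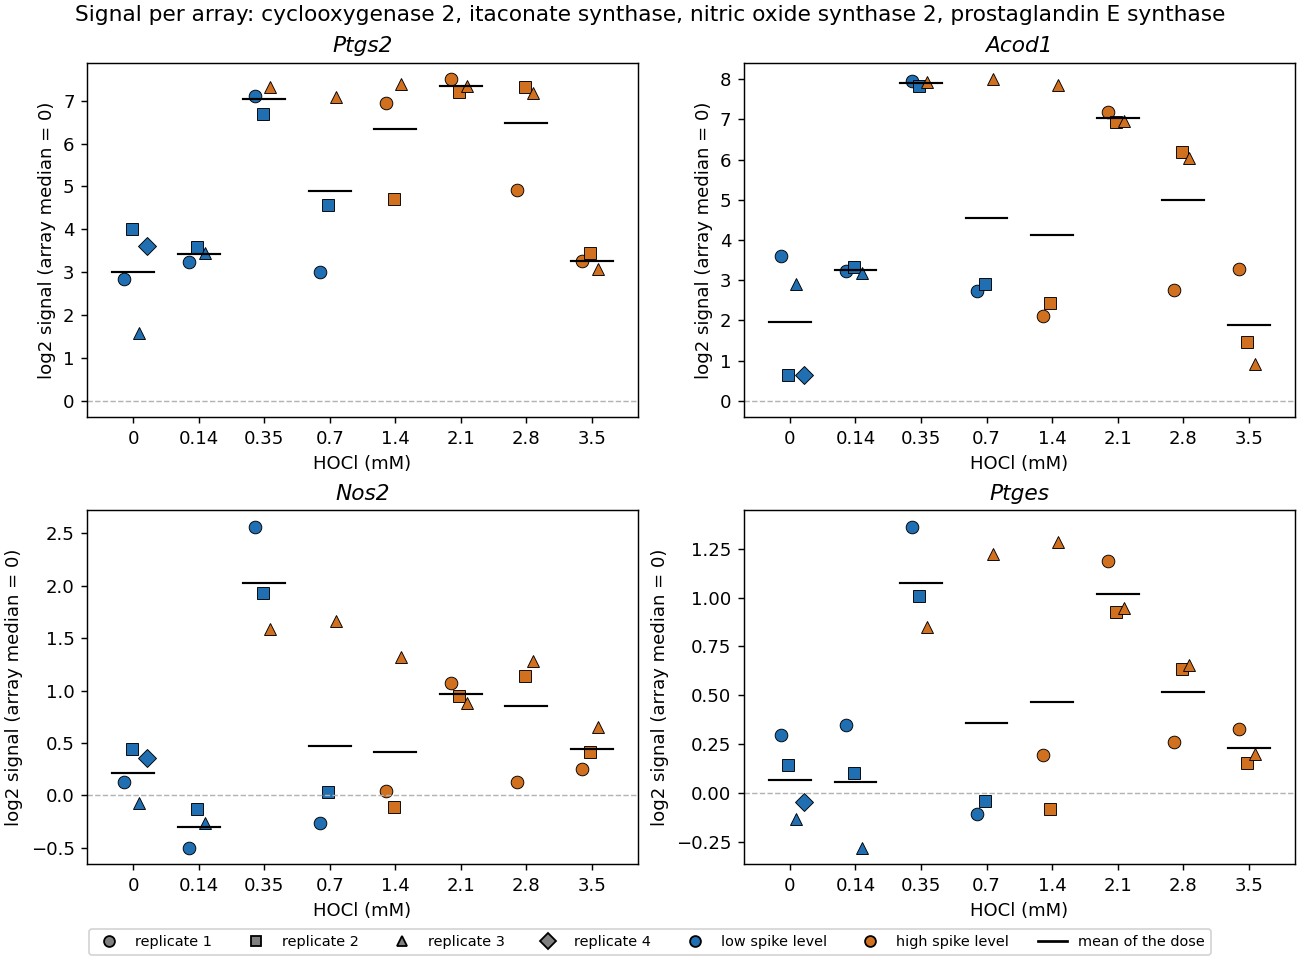
Log2 signal (array median 0) of Ptgs2, Acod1, Nos2 and Ptges on each of the 25 arrays against the HOCl dose in mM, doses evenly spaced; symbols give the replicate number, colours the spike-control level and bars the mean of the dose. At 0.35 and 2.1 mM all 3 arrays are high for Ptgs2 and Acod1, at 0.7 and 1.4 mM replicate 3 is high for all 4 genes, and at 3.5 mM none is.

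Ptgs2 (probe set 1417262_at) stood at 2.84, 4.01, 1.59 and 3.61 on the 4 arrays of 0 mM and at 3.23, 3.60 and 3.44 at 0.14 mM. At 0.35 mM it was at 7.11, 6.70 and 7.33, and all 3 arrays lay above every 0 mM array. The rise was 16.4-fold (log2 4.03, SE 0.764, limma adjusted p = 0.00745), and it was called under each of the 35 alternatives tried. At 2.1 mM Ptgs2 was at 7.50, 7.20 and 7.34, a 20.2-fold rise (log2 4.34, SE 0.764, limma adjusted p = 0.00124). These 3 arrays too lay above every 0 mM array and spread little among themselves.

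At the doses between, Ptgs2 differed strongly between arrays of 1 dose. At 0.7 mM it was at 3.02, 4.56 and 7.08 on replicates 1, 2 and 3 (log2 difference 1.87, SE 0.764, limma adjusted p = 0.377), and without replicate 3 the difference was 0.78 (limma adjusted p = 0.743). At 1.4 mM it was at 6.94, 4.72 and 7.39, all above the 0 mM arrays, with the middle replicate low (log2 3.33, SE 0.764, limma adjusted p = 0.0123). The call at 1.4 mM was lost without replicate 1 (3.04, limma adjusted p = 0.0573) and without replicate 3 (2.81, limma adjusted p = 0.0640). It was also lost when only 0 and 1.4 mM were fitted (limma adjusted p = 0.0706). At 2.8 mM Ptgs2 was at 4.92 on replicate 1 and at 7.31 and 7.18 on the others (log2 3.46, SE 0.764, limma adjusted p = 0.00607), again above every 0 mM array, and without replicate 1 the difference was 4.23 (limma adjusted p = 0.00159).

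At 3.5 mM Ptgs2 was at 3.27, 3.45 and 3.08, inside the range of 0 mM (log2 0.26, SE 0.764, limma adjusted p = 0.865). It fell by 3.20 from 2.8 to 3.5 mM (SE 0.817, limma adjusted p = 0.014), a step at which 5.59% of all probe sets were higher and 5.66% lower. That call was lost without 2.8 mM replicate 2 (adjusted p = 0.0904), without 2.8 mM replicate 3 (0.0836) and without 3.5 mM replicate 3 (0.0579). From 0.14 to 0.35 mM Ptgs2 rose by 3.62 (SE 0.817, limma adjusted p = 0.0218), where 1.1% of all probe sets were higher (32.6% of the calls of that step, and 49.2% after quantile normalization). That call was lost without any 1 of the 6 arrays compared, with adjusted p from 0.0591 to 0.0928.

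Ordered by mean level, the doses of Ptgs2 were 0 mM (3.01), 3.5 mM (3.27), 0.14 mM (3.42), 0.7 mM (4.89), 1.4 mM (6.35), 2.8 mM (6.47), 0.35 mM (7.05) and 2.1 mM (7.35). Arrays of each pair of neighbours in this order overlapped. The order does not follow the dose: 2 doses with high Ptgs2 on all arrays, 0.35 and 2.1 mM, are separated by doses at which the arrays differ.

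The second probe set of Ptgs2 (1417263_at) gave a similar pattern of means, with calls at 0.35 mM (log2 3.76, SE 1.12, limma adjusted p = 0.0499), 2.1 mM (4.89, adjusted p = 0.00704) and 2.8 mM (3.68, adjusted p = 0.0373). At 1.4 mM it was not called (3.23, adjusted p = 0.0813). On replicate 2 of 1.4 mM and replicate 1 of 2.8 mM it read 3.02 and 3.41, inside its 0 mM range. On its lowest 0 mM array it read -0.43 and on its highest 3.61, a wider spread than that of the first probe set.

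Ptges (1449450_at), the enzyme after Ptgs2 in prostaglandin E2 synthesis, was at 0.29, 0.14, -0.13 and -0.05 at 0 mM, close to the array median. At 0.35 mM it was at 1.36, 1.01 and 0.85, a 2.01-fold rise (log2 1.01, SE 0.288, limma adjusted p = 0.0417). At 2.1 mM it was at 1.19, 0.93 and 0.95, a 1.94-fold rise (log2 0.96, SE 0.288, limma adjusted p = 0.0326). At both doses all 3 arrays lay above the 4 of 0 mM. The F test over all doses did not call this probe set (adjusted p = 0.057), and both dose calls were lost under several alternatives. At 0.35 mM the call was lost in 10 of 25 omissions of 1 array: 0 mM replicates 2, 3 and 4 (adjusted p = 0.088, 0.0593 and 0.0975), 0.14 mM replicate 2 (0.0524), 0.35 mM replicates 1 and 2 (0.139 and 0.114), 2.1 mM replicates 1, 2 and 3 (0.0516, 0.0541 and 0.0528) and 2.8 mM replicate 2 (0.0502). At 2.1 mM it was lost in 6: 0 mM replicates 2, 3 and 4 (0.0512, 0.0633 and 0.0719) and 2.1 mM replicates 1, 2 and 3 (0.122, 0.0774 and 0.0773).

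At 0.7 mM Ptges was at -0.11, -0.04 and 1.22 on replicates 1, 2 and 3, and at 1.4 mM at 0.20, -0.08 and 1.28, so that replicate 3 alone was high at either dose. Neither dose was called (log2 0.29, adjusted p = 0.724, and 0.40, adjusted p = 0.422, by limma), and without replicate 3 the differences were -0.14 and -0.01. At 2.8 mM it was at 0.26, 0.64 and 0.66, and at 3.5 mM at 0.33, 0.15 and 0.20, which overlaps 0 mM. Another Ptges probe set (1449449_at) was called at 0.35 mM (log2 0.51, SE 0.0868, limma adjusted p = 0.00545) and not at 2.1 mM (0.23, adjusted p = 0.0799). The third (1439747_at) was below 0 on 24 of 25 arrays and was called at no dose (F test adjusted p = 0.641). Its difference at 0.35 mM was 0.305 (limma adjusted p = 0.374), with overlap of the arrays with those of 0 mM. The probe sets of Ptges thus differ in their calls at 0.35 mM as well as at 2.1 mM. At 2.1 mM 1449449_at and 1439747_at, though not called, were higher by 0.2339 and 0.3545. All 3 arrays of that dose lay above every 0 mM array for each of them. The mean of 1449450_at over all arrays was 0.46 and that of 1449449_at 0.42, but at 0, 0.14 and 3.5 mM 1449450_at was the dimmer (0.06, 0.05 and 0.23 against 0.21, 0.33 and 0.47). It is thus the brightest probe set through the doses at which it was high. With the probe set brightest at 0 mM for each gene, 4 members were called at 0.35 mM as before and 2 instead of 3 at 2.1 mM, Ptges being lost.

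Acod1 (1427381_at) showed a wide range, from 0.64 to 8.0. At 0 mM it was at 3.61, 0.64, 2.91 and 0.65, so the controls themselves spread over 2.96 log2 units, and at 0.14 mM it was at 3.23, 3.32 and 3.17. At 0.35 mM it was at 7.94, 7.83 and 7.94, a 61.9-fold rise (log2 5.95, SE 1.29, limma adjusted p = 0.0123). At 2.1 mM it was at 7.18, 6.93 and 6.96, a 33.6-fold rise (log2 5.07, SE 1.29, limma adjusted p = 0.0127). At both doses every array lay above every 0 mM array. The call at 0.35 mM was lost without 0.35 mM replicate 2 (log2 5.99, adjusted p = 0.0588), an omission that left 163 calls over all probe sets instead of 2898.

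At 0.7, 1.4 and 2.8 mM, the doses at which the arrays divided, Acod1 was either low or near its 0.35 and 2.1 mM level. At 0.7 mM it was at 2.72, 2.90 and 8.0 on replicates 1, 2 and 3 (log2 difference 2.59, SE 1.29, limma adjusted p = 0.453; 0.86 without replicate 3). At 1.4 mM it was at 2.10, 2.43 and 7.86 (2.17, adjusted p = 0.321; 0.31 without replicate 3). At 2.8 mM it was at 2.75, 6.17 and 6.04 (3.03, adjusted p = 0.136; 4.15, adjusted p = 0.0551, without replicate 1). None of these differences was called. At 3.5 mM Acod1 was at 3.27, 1.46 and 0.91, within the range of 0 mM (log2 -0.07, adjusted p = 0.979).

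In the order of its means Acod1 ran from 3.5 mM (1.88) and 0 mM (1.95) over 0.14 mM (3.24), 1.4 mM (4.13), 0.7 mM (4.54) and 2.8 mM (4.99) to 2.1 mM (7.02) and 0.35 mM (7.90). The last 3 of these neighbours did not overlap with each other, and the others did. The difference between 2.1 and 0.35 mM itself was not called (log2 -0.88, SE 1.37, limma adjusted p = 0.756).

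**Figure D2:**
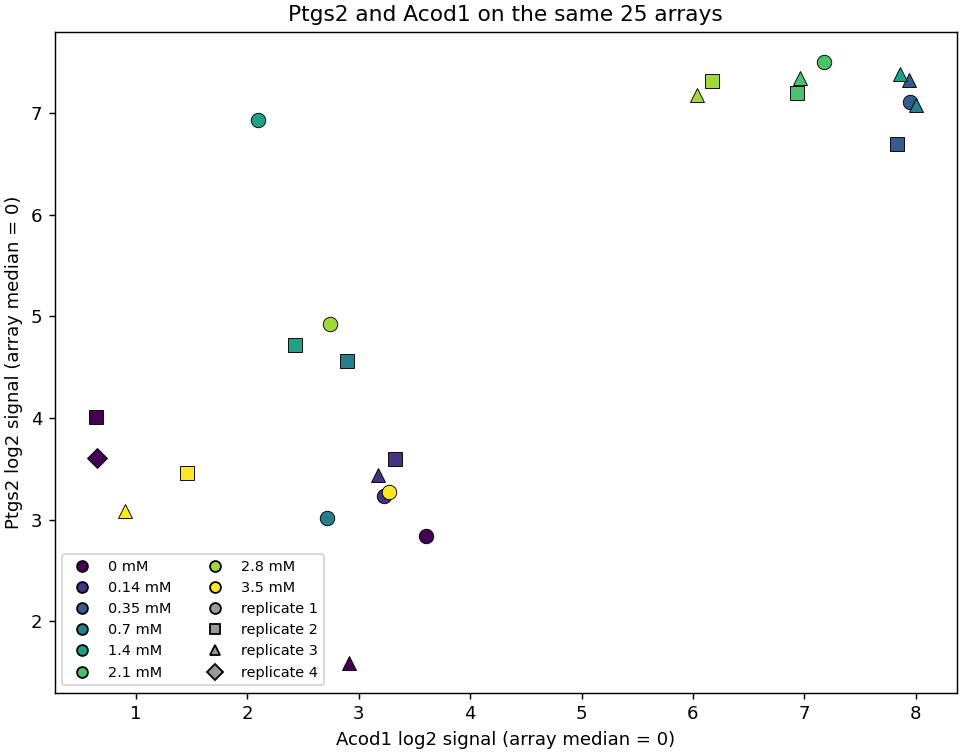
Log2 signal of Ptgs2 (vertical) against that of Acod1 (horizontal) on the 25 arrays, both with the array median at 0; colours give the HOCl dose and symbols the replicate number. On 10 arrays both genes are above 6, and replicate 1 of 1.4 mM stands apart with Ptgs2 at 6.94 and Acod1 at 2.10.

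Ptgs2 and Acod1 parted on some arrays. On replicate 1 of 1.4 mM Ptgs2 was at 6.94, close to its level at 0.35 mM, while Acod1 was at 2.10, inside its 0 mM range. On the same array Nos2 was at 0.04 and Ptges at 0.20, both inside their 0 mM ranges. Replicate 2 of 1.4 mM and replicate 1 of 2.8 mM also had Ptgs2 (4.72 and 4.92) above every 0 mM array with Acod1 (2.43 and 2.75) inside the 0 mM range.

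Nos2 (1420393_at) was at 0.12, 0.45, -0.08 and 0.36 at 0 mM and at -0.50, -0.13 and -0.26 at 0.14 mM. At 0.35 mM it was at 2.57, 1.93 and 1.59, a 3.52-fold rise (log2 1.81, SE 0.386, limma adjusted p = 0.0116), with every array above the 4 controls. Without 0.35 mM replicate 2 the difference was 1.86 and the call was lost (adjusted p = 0.0562). From 0.14 to 0.35 mM Nos2 rose by 2.33 (SE 0.413, limma adjusted p = 0.00936). That step was lost without 0.14 mM replicate 2 (adjusted p = 0.059) or replicate 3 (0.0607).

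At 2.1 mM Nos2 was at 1.08, 0.94 and 0.88, above all 4 controls, but the difference was not called (log2 0.75, SE 0.386, limma adjusted p = 0.21). At 0.7 and 1.4 mM it was at 1.66 and 1.32 on replicate 3 and between -0.27 and 0.04 on replicates 1 and 2. At 2.8 mM it was at 0.13, 1.14 and 1.28 (0.64, adjusted p = 0.31), and at 3.5 mM at 0.25, 0.42 and 0.65 (0.23, adjusted p = 0.753). Thus the arrays with raised Acod1 at the doses that divided were also those on which Nos2 was above the 0 mM arrays.

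Nos2 was lower at 2.1 than at 0.35 mM on every array, but that difference missed the threshold (log2 -1.06, SE 0.413, limma adjusted p = 0.201). In the order of its means Nos2 ran from 0.14 mM (-0.30) over 0 mM (0.21), 1.4 mM (0.42), 3.5 mM (0.44), 0.7 mM (0.47), 2.8 mM (0.85) and 2.1 mM (0.97) to 0.35 mM (2.03). The arrays of 0.14 and 0 mM, and those of 2.1 and 0.35 mM, did not overlap, and the other neighbours did.

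**Figure D3:**
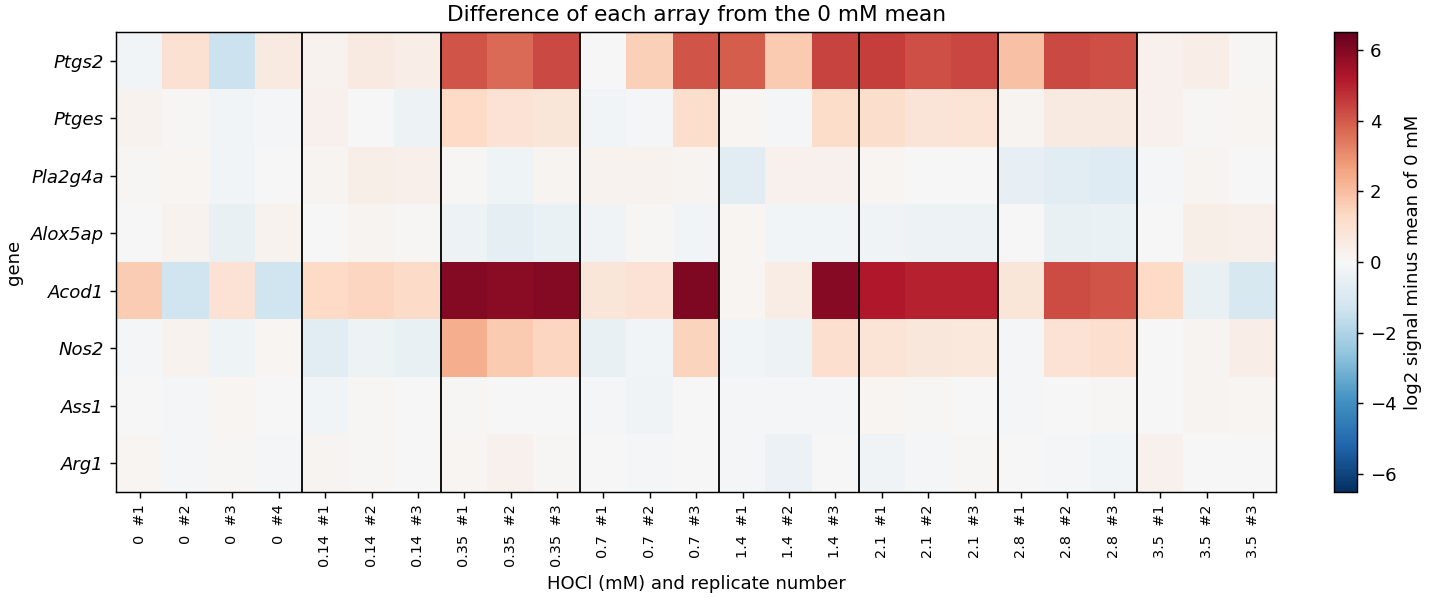
Log2 signal of the 8 measured genes (rows) on each array (columns, by HOCl dose in mM and replicate number) minus the gene's mean at 0 mM; red is higher and blue lower. Ptgs2 and Acod1 are red in the columns of 0.35 and 2.1 mM and on replicate 3 of 0.7 and 1.4 mM. They are red too on replicates 2 and 3 of 2.8 mM. Nos2 and Ptges are higher on the same arrays but paler, on the colour scale shared by all rows. The rows of Ass1 and Arg1 stay pale.

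High Acod1 occurred at both spike levels: replicates 1 and 2 of 0.35 mM (7.94 and 7.83) were at the low level, and replicates 1 and 2 of 1.4 mM (2.10 and 2.43) and all of 3.5 mM (0.91 to 3.27) at the high one. At 0.35 mM the array at the high level read the same (7.94), and at 0.7 mM the array with high Acod1 was the one at the high level. With spike level as a term in the fit, which only the arrays of 0.35 and 0.7 mM determine, the calls at 0.35 mM held for Ptgs2, Acod1 and Nos2 and not for Ptges (adjusted p = 0.0827). The calls from 1.4 mM on were lost, for Ptgs2 at 1.4 mM (log2 1.48, adjusted p = 0.711), 2.1 mM (2.48, 0.353) and 2.8 mM (1.60, 0.472), for Acod1 at 2.1 mM (2.45, 0.606) and for Ptges at 2.1 mM (0.48, 0.673). Over all probe sets that fit left 17 calls at 1.4 mM instead of 3519 and 39 at 2.1 mM instead of 6015. At 2.8 mM it left 119 instead of 5357, and at 0.35 mM it gave 3133 instead of 2898. S100a8, in the list of other cell types, was called higher at 0.35 and 2.1 mM, the doses with the most member calls, while its partner S100a9 stayed below 0 throughout; its part in the results was not tested.

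Within the doses at which the arrays divided, actin 3′ minus 5′ signal was lower on the arrays with raised Acod1, at 0.7 mM by little. At 1.4 mM it was 0.57 and 0.56 on the replicates with low Acod1 and 0.43 on replicate 3, at 2.8 mM it was 0.56 on replicate 1 against 0.45 and 0.46, and at 0.7 mM 0.40 and 0.41 against 0.38 on replicate 3. The 0.35 mM arrays were at 0.26, 0.24 and 0.36, with the lowest readings of all treated arrays on replicates 1 and 2. At 2.1 mM it lay between 0.31 and 0.44, at 3.5 mM between 0.28 and 0.68 and at 0 mM between 0.12 and 0.47, so these ranges overlap. Gapdh 3′ minus 5′ signal showed no single direction. On the arrays with raised Acod1 it was -0.076 at 0.7 mM, -0.113 at 1.4 mM and -0.065 and -0.084 at 2.8 mM. On the others it was -0.089 and -0.092 at 0.7 mM, -0.067 and -0.095 at 1.4 mM and -0.087 at 2.8 mM. The part of these 3′ minus 5′ signals in the results was not tested.

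Some macrophage markers also moved at the doses of the member calls. At 0.35 mM 2 of the 10 were higher and 1 lower, beside 1.71% and 4.72% of all probe sets. At 2.1 mM 0 were higher and 2 lower, beside 7.26% and 6.09%. At 1.4 and 2.8 mM 0 were higher and 1 lower, beside 3.43% and 6.26% of all probe sets lower. Adgre1, an adhesion receptor that marks mature mouse macrophages, fell by 1.29 at 0.35 mM (limma adjusted p = 0.0177) and by 1.07 at 2.1 mM (0.0232), calls that were lost in 3 and 6 omissions of 1 array. Fcgr1, a high-affinity Fc receptor, fell by 1.38 at 2.1 mM (0.0313), lost in 6. Spi1, the myeloid factor PU.1, fell by 0.89 at 1.4 mM (0.0423) and 0.92 at 2.8 mM (0.0276), lost in 12 and 5. Cd14, a lipopolysaccharide co-receptor, and Mpeg1, perforin-2, were higher at 0.35 mM (0.66, adjusted p = 0.0449, and 0.79, adjusted p = 0.0478), lost in 16 and 17. The others, Csf1r, Cd68, Lyz2, Itgam and Csf2ra, were called at no dose. The part of these markers in the results was not tested.

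Pla2g4a (1448558_a_at) was at 6.03, 6.09, 5.76 and 5.90 at 0 mM. At 2.8 mM it was at 5.40, 5.26 and 5.09, below all controls, and it fell by 0.70 (1.62-fold lower, SE 0.17, limma adjusted p = 0.0111). Without 2.8 mM replicate 3 the difference was -0.62 and the call was lost (adjusted p = 0.0702), as it was with spike level as a term (-0.81, adjusted p = 0.152). From 2.8 to 3.5 mM it rose by 0.72 (SE 0.181, limma adjusted p = 0.0127), to 5.82, 6.12 and 5.97, back in the range of 0 mM. That step was lost without 2.8 mM replicate 2 (adjusted p = 0.051), 2.8 mM replicate 3 (0.0774) or 3.5 mM replicate 2 (0.0622).

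At the other doses Pla2g4a lay between 5.68 and 6.34 except on replicate 1 of 1.4 mM, where it was 5.28. That array, low for Pla2g4a, is the one on which Ptgs2 was high without Acod1. At 2.8 mM Pla2g4a was low on replicate 1 as on replicates 2 and 3, so it did not follow the division of Acod1 among these arrays.

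Alox5ap (1452016_at) was at 6.14, 6.33, 5.64 and 6.35 at 0 mM. At 0.35 mM it was at 5.79, 5.52 and 5.69 (log2 -0.45, SE 0.149, limma adjusted p = 0.0767), not called, and below 3 of the 4 controls. Without 0 mM replicate 3, the lowest control, the difference was -0.60 and was called (adjusted p = 0.00568). From 2.8 mM (6.07, 5.64 and 5.67) to 3.5 mM (6.16, 6.48 and 6.47) Alox5ap rose by 0.58 (SE 0.159, limma adjusted p = 0.0219). Replicate 1 of 2.8 mM, on which Acod1 was low, had the highest Alox5ap of its dose. The step was lost without 2.8 mM replicate 2 (adjusted p = 0.123) or 3 (0.114), without 3.5 mM replicate 2 (0.0888) or 3 (0.0985), and when only these doses were fitted (0.0885).

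**Figure D4:**
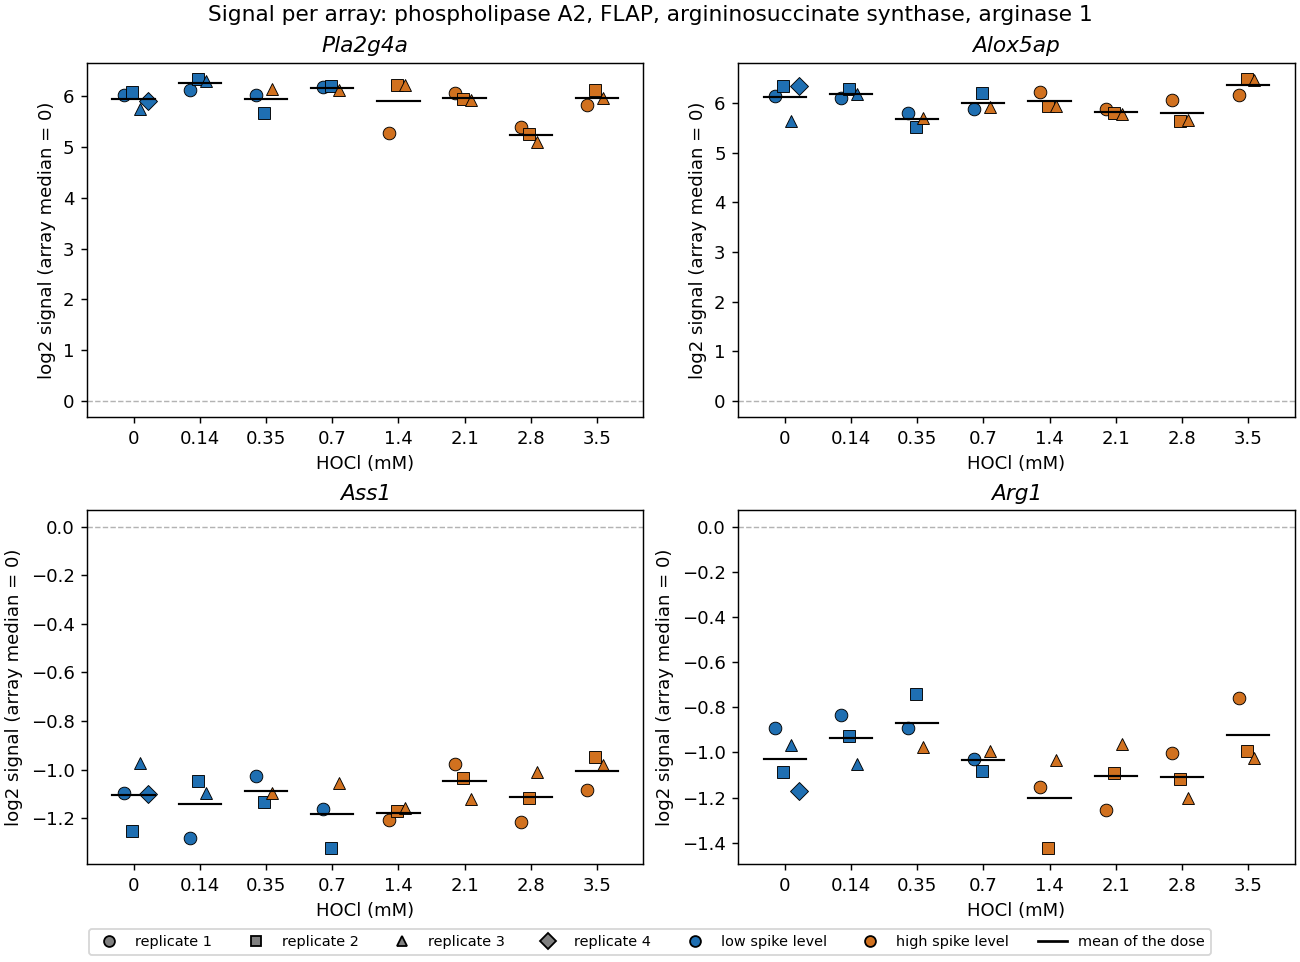
Log2 signal (array median 0) of Pla2g4a, Alox5ap, Ass1 and Arg1 on each of the 25 arrays against the HOCl dose in mM, doses evenly spaced; symbols give the replicate number, colours the spike-control level and bars the mean of the dose, and the vertical scales differ between panels. Pla2g4a is low on all 3 arrays of 2.8 mM and on 1 of 1.4 mM, and Ass1 and Arg1 lie below 0 on all arrays.

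Ass1 (1459937_at) ranged from -1.32 to -0.95 over the 25 arrays and was called at no dose (F test adjusted p = 0.607). Its differences from 0 mM lay between -0.07 (0.7 mM) and 0.10 (3.5 mM), each with an SE of 0.0837. The probe set shared by Ass1 and Gm5424 (1416239_at) read 0.81, 1.75, 0.68 and 1.73 at 0 mM and 0.31 to 1.75 over all arrays (F test adjusted p = 0.256). It was above 0 on every array, so the Ass1 probe sets disagree on the level, and the signal of the shared one cannot be given to 1 gene.

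Arg1 (1419549_at) ranged from -1.42 to -0.74 (F test adjusted p = 0.225). Its differences from 0 mM lay between -0.18 at 1.4 mM and 0.16 at 0.35 mM, with an SE of 0.104, and the arrays of every dose overlapped those of 0 mM. Of 12 genes known from alternative activation, measured beside Arg1, Klf4 alone was called, at 3.5 mM (log2 2.79, SE 0.697, limma adjusted p = 0.0147). That is 1 of 12 higher, beside 3.93% of all probe sets higher and 5.4% lower at that dose. The call of Klf4 was lost without 3.5 mM replicate 2 (adjusted p = 0.0512) or 3 (0.0551). With array weights up to 5 of the 12 were called at a dose, at 2.1 mM, beside 17428 of all 45037 probe sets. Stat6, the interleukin 4 signalling factor, was called by the F test (adjusted p = 0.00772) and at no single dose.

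Of the other genes of the prostaglandin and leukotriene routes, 30 measured, 4 were higher and 4 lower at 2.1 mM. Beside them 7.26% of all probe sets were higher and 6.09% lower. The median of the list was -0.08 against 0.00 over all genes, so it did not move as a block. With array weights 16 were called at that dose, beside 17428 of all 45037 probe sets. With spike level as a term 1 was called there, beside 39 of all probe sets. Ptgir, the prostacyclin receptor, rose by 1.48 at 0.35 mM, 1.91 at 0.7 mM, 2.32 at 1.4 mM, 2.17 at 2.1 mM and 0.85 at 2.8 mM (SE 0.262, limma adjusted p from 7.2e-05 to 0.0393), and was at 0.07 at 3.5 mM. The call at 2.8 mM was lost without 0 mM replicate 1, 3 or 4 (adjusted p = 0.0913, 0.0816 and 0.0514) or 2.8 mM replicate 2 or 3 (0.265 and 0.192), and those at the lower doses held in each omission. Ptgr1, which inactivates prostaglandins and leukotriene B4, rose at 1.4 mM (1.03), 2.1 mM (1.27) and 2.8 mM (0.71), with limma adjusted p of 0.00215, 0.000239 and 0.0109. Pla2g5, a secreted phospholipase, rose by 2.00 at 0.35 mM (SE 0.389, limma adjusted p = 0.00822), by 1.97 at 2.1 mM (0.00261) and by 1.52 at 2.8 mM (0.0154). Without 0.35 mM replicate 2 the call of Pla2g5 at 0.35 mM was lost (0.0535), and without 2.8 mM replicates 2 or 3 those at 2.8 mM of Ptgr1 (0.0797 and 0.064) and Pla2g5 (0.0896 and 0.0765).

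The lower calls of the list fell on both routes. Ptges2, Lta4h, Ltc4s and Alox5 are named here after their values were seen. Ptges2, another prostaglandin E synthase, fell by 0.85 at 1.4 mM (limma adjusted p = 0.0155) and by 0.86 at 2.1 mM (0.00843), the former lost without 1.4 mM replicate 1 (0.0837). Ltc4s, leukotriene C4 synthase, fell by 0.86 at 2.1 mM (0.0097), lost without 2.1 mM replicate 3 (0.0591), and Lta4h, leukotriene A4 hydrolase, fell by 0.42 at 0.35 mM (0.0494), lost in 21 omissions. Ltb4r1, Alox12 and Alox15 were called at no dose. Alox5, the lipoxygenase that FLAP serves, fell by 1.27 at 2.1 mM (SE 0.271, limma adjusted p = 0.00445), a call that held in each omission. It was also called at 0.35, 1.4 and 2.8 mM (-1.02, -0.91 and -1.06), where the calls were lost in 6, 15 and 3 omissions, with adjusted p up to 0.137 at 0.35 mM without its replicate 2, 0.164 at 1.4 mM without its replicate 2 and 0.0854 at 2.8 mM without its replicate 3. Cysltr1, a receptor for cysteinyl leukotrienes, fell by 2.19 at 2.1 mM and 1.42 at 2.8 mM (SE 0.372, limma adjusted p = 0.000988 and 0.0175), the latter lost without 2.8 mM replicate 2 (0.127) or 3 (0.126). At 3.5 mM Cbr1, carbonyl reductase, was higher by 0.57 (limma adjusted p = 0.00668). Of the 30 genes 1 was thus higher there and 0 lower, beside 3.93% and 5.4% of all probe sets. The count there was 4 without 2.8 mM replicate 1, 3 without 0 mM replicate 1 or 1.4 mM replicate 1, and 2 without 0 mM replicates 3 or 4, 1.4 mM replicate 2, 2.8 mM replicate 3 or 3.5 mM replicates 1 or 3.

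Of 24 measured genes around arginine and nitric oxide, 0 were called by limma at 0.35 mM, where 6 had an unadjusted p under 0.05. Over all 45037 probe sets 10026 had such a p there. Odc1, ornithine decarboxylase (0.96, adjusted p = 0.0503), and Slc7a1 (0.59, adjusted p = 0.0504) just missed the threshold there. The count was 1 or 2 without 0 mM replicates 1, 2 or 3, any array of 0.7 or 1.4 mM or 2.8 mM replicate 1. It was 8 with array weights, beside 11142 of all 45037 probe sets. Slc7a1, an arginine importer, rose by 0.87 at 2.1 mM (SE 0.177, limma adjusted p = 0.00308), a call that held in each omission, while that at 1.4 mM (0.60, adjusted p = 0.0421) was lost in 13, with adjusted p up to 0.169 without 1.4 mM replicate 3. With its probe set brightest at 0 mM neither was called (0.21, adjusted p = 0.491, at 1.4 mM and 0.24, adjusted p = 0.389, at 2.1 mM). Azin1, an inhibitor of antizyme, rose by 0.65 at 1.4 mM (SE 0.146, adjusted p = 0.0117), but its probe set of largest variance read -0.11, and the call was lost without 1.4 mM replicate 1 (0.0718). Oat, ornithine aminotransferase, rose by 0.66 at 2.8 mM (SE 0.171, adjusted p = 0.0164), lost without 2.8 mM replicate 1 (0.0543) or 2 (0.0595). Gchfr, a regulator of the enzyme that starts tetrahydrobiopterin synthesis, was called by the F test (adjusted p = 0.00942) and at no single dose. At 1.4, 2.1, 2.8 and 3.5 mM 2, 3, 2 and 2 genes of this list were higher and 0 lower. Beside them 4.39%, 7.26%, 5.64% and 3.93% of all probe sets were higher. Arg2, arginase 2, named after its values were seen, rose by 2.01 at 2.1 mM (SE 0.596, limma adjusted p = 0.0293). The F test did not call Arg2 (adjusted p = 0.0637), and its call was not followed over the omissions.

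Genes around itaconate, citrate and the neighbouring steps of the tricarboxylic acid cycle made a list of 20 measured. Of these 5 were lower at 0.35 mM and 4 lower at 2.1 mM, with 0 higher at either dose. Of all probe sets 4.72% and 6.09% were lower at these doses, and 1.71% and 7.26% higher. The median of the list was -0.22 and -0.19, against 0.03 and 0.00 over all genes. At 0.35 mM the count was 1 without 0 mM replicate 2 or 4 and 0 without 0.35 mM replicate 2. At 2.1 mM it was 8 after quantile normalization, 7 with the probe set of largest variance, 13 with array weights and 0 with spike level as a term. Over all probe sets 6015 were called at 2.1 mM, 6327 after quantile normalization, 17428 with array weights and 39 with spike level as a term. Slc25a1, the mitochondrial citrate carrier, fell by 1.16, 1.08 and 1.07 at 1.4, 2.1 and 2.8 mM (SE 0.232, limma adjusted p = 0.00571, 0.00449 and 0.00551), and these calls held in each omission. Idh2, mitochondrial isocitrate dehydrogenase, fell by 1.01 at 2.1 mM (SE 0.221, adjusted p = 0.00506), which also held. Its calls at 0.35, 1.4 and 2.8 mM (-0.84, -0.78 and -0.78) were lost in 4, 5 and 4 omissions, among them 0 mM replicates 2 (adjusted p = 0.0821, 0.0667 and 0.0573) and 4 (0.0891, 0.095 and 0.0748).

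Idh3b and Idh3g encode subunits of the NAD-dependent isocitrate dehydrogenase. Idh3b fell by 0.51 at 0.35 mM (SE 0.097, limma adjusted p = 0.00745), lost without 0.35 mM replicate 2 (0.0553). Idh3g fell by 0.67 at 0.35 mM (SE 0.156, adjusted p = 0.0173), lost without 0 mM replicate 2 (0.063) or 4 (0.0615) or 0.35 mM replicate 2 (0.0887). Its probe sets disagree: the one of largest variance read -0.02 at 0.35 mM, and 0.20 at 2.1 mM where the brightest was at -0.48 (adjusted p = 0.0454, lost in 14 omissions). At 3.5 mM 4 genes of the list were higher and 0 lower (2 without 3.5 mM replicate 2), beside 3.93% and 5.4% of all probe sets. Among the higher was Idh3g at 0.56 (limma adjusted p = 0.0267). Its call was lost without 0 mM replicate 1 or 3 (0.0675 and 0.0678) or 3.5 mM replicate 2 or 3 (0.0878 and 0.12). The median of the list was then 0.43 against 0.10 over all genes.

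Genes that accompany or drive the induction of Ptgs2, Acod1 and Nos2 (cytokines, receptors, NF-kB and C/EBP factors) were partly higher at the same doses. Of 20 measured, 11 were higher at 0.35 mM and 10 at 2.1 mM, with 0 lower at either dose. Over all probe sets 1.71% were higher and 4.72% lower at 0.35 mM, and 7.26% and 6.09% at 2.1 mM. The medians of the list at these doses were 1.18 and 1.16 against 0.03 and 0.00 over all genes. Without 0.35 mM replicate 2 the count at 0.35 mM was 1. Without 2.1 mM replicate 1, 2 or 3 that at 2.1 mM was 5, 5 and 6. With array weights the count at 2.1 mM was 17, beside 17428 of all 45037 probe sets. With spike level as a term it was 0, beside 39 of all probe sets. Not all followed: Tlr2 had its highest mean at 0.14 mM (0.81 above 0 mM) and Tlr4 at 0 mM, and Jun lay below 0 mM at every dose, between -1.02 and -0.28. Socs3, a feedback inhibitor of cytokine signalling, rose by 3.48 at 0.35 mM, 3.37 at 2.1 mM and 2.90 at 2.8 mM (SE 0.729, limma adjusted p = 0.011, 0.00478 and 0.0137). Rel, an NF-kB subunit, rose by 2.35 at 2.1 mM and 2.27 at 2.8 mM (SE 0.553, adjusted p = 0.00825 and 0.0112). The call of Socs3 at 0.35 mM was lost without its replicate 2 (0.0553), and at 2.8 mM those of Socs3 (0.0662 and 0.0644) and Rel (0.0922 and 0.0844) were lost without its replicates 2 or 3. With the probe set of Socs3 brightest at 0 mM its call at 2.8 mM was lost too (1.37, adjusted p = 0.103).

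At 1.4 mM this list had 1 member higher, Fosl1, an AP-1 subunit, by 1.60 (SE 0.375, limma adjusted p = 0.014), and 0 lower. Of all probe sets 4.39% were higher and 3.43% lower there. Fosl1 rose by 1.96 at 2.8 mM (limma adjusted p = 0.0024). Fosl1 was thus highest at 2.8 mM. Without 1.4 mM replicate 1 the former call was lost (0.0894). The count at 1.4 mM was 2 to 5 in 11 of 25 omissions (5 without 0.7 mM replicate 3). At 2.8 mM 4 were higher and 2 lower, beside 5.64% and 6.26% of all probe sets. The list had 2 calls in all without 2.8 mM replicate 2 or 3. At 3.5 mM 0 were higher and 2 lower (1 called in 15 omissions and 3 in 5), beside 3.93% and 5.4% of all probe sets. Among the lower was Nfkbia, the inhibitor that NF-kB itself induces, which fell by 0.74 (SE 0.176, limma adjusted p = 0.0112). Its call was lost without 3.5 mM replicate 3 (0.0659). Its probe set of largest variance read 0.35 there. Nfkbia was higher at 0.35 mM (0.60, adjusted p = 0.0455), a call lost in 15 omissions, with adjusted p up to 0.131 without 0.35 mM replicate 3. Of the calls at 1.4 to 2.8 mM named above for genes of the lists, Arg2 left aside, that of Ptgr1 at 2.1 mM held with spike level as a term and the others were lost.

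The mean of this list per array, relative to 0 mM, divided the arrays as Acod1 did. It was 1.98, 1.78 and 1.82 at 0.35 mM and 1.59, 1.5 and 1.47 at 2.1 mM. At 0.7 and 1.4 mM it was 1.86 and 1.79 on replicate 3, while replicates 1 and 2 lay between -0.18 and 0.16. At 2.8 mM it was 0.04 on replicate 1 and 1.39 and 1.30 on replicates 2 and 3, and at 3.5 mM it lay between -0.40 and -0.15.

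The genes whose profiles over the 25 arrays were most like those of the members are given as a description, with Pearson's r over arrays that share doses and spike levels, among 18192 genes. For Ptgs2 they were Socs3 (0.965), Plaur, the urokinase receptor (0.962), and Osgin2 (0.954). For Acod1 they were the cytokine Tnf (0.987), the chemokine Ccl2 (0.963) and Tnip1, an NF-kB regulator (0.963). For Nos2 they were the chemokine Ccl5 (0.952) and the cytokines Csf2 (0.932) and Lif (0.925).

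The members that were not induced had other companions. For Pla2g4a they were Rassf5 (0.902), Ppp1r21 (0.873) and Akna (0.858), and for Alox5ap they were Pqlc3 (0.955), Acat1, mitochondrial acetyl-CoA acetyltransferase (0.952), and Acyp1, an acylphosphatase (0.952).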

How the data were processed

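Per probe set the deposited table gives a log2 signal, which the authors made with RMA per the submitters' processing notes and read with Array Assist per the labels' design text. Every array has a median of 0, and quartiles differ between arrays. The base of the logarithm is not given in the sources used here; base 2 was inferred from the span of values, and folds rest on it. Of 45101 probe sets 64 controls were set aside and 45037 tested without a filter; 34945 carry 1 symbol, 932 several and 9160 none. With limma 3.58.1 (R 4.3.3), 1 linear model over the 25 arrays gave each dose its mean (17 residual and 2.99 prior degrees of freedom), with two-sided moderated tests against 0 mM and between neighbouring doses. P-values were adjusted by Benjamini-Hochberg over all tested probe sets. P-values rest on the spread between arrays of the same dose, pooled over all doses, and precision is limited by how many arrays there are. Beyond the word biological, it was not known whether replicates were separate cultures. A printed SE is therefore not the spread of its own dose. Acod1 varied most among the 1.4 mM arrays (standard deviation 3.23) and least among those of 0.35 mM (0.063). Ptgs2 did so at 0.7 mM (2.05) and 2.1 mM (0.15). The members, lists and tests were chosen with earlier results of these data known. All members were described whatever their result, with up to 4 genes per list of lowest F test p, called by that test, and the 3 genes most correlated with each member so called. Spike levels were divided at 1.44. The fit was tried on simulated data with known changes at 0.35 mM against 0 mM and the same normal spread at every dose. Contrasts between neighbouring doses, and arrays that divide within a dose, were not simulated. Alternatives were quantile normalization, leaving out dim probe sets, another variance prior, other samples in the fit, array weights, the replicate number as a block, spike level, another probe set per gene and leaving out each array. Same-numbered arrays were not paired: 19 of 84 pairs had residuals correlated above 0.1. The contrast of 2.1 with 0.35 mM was added after seeing the data, as were the alternatives for steps between neighbouring doses and the probe set brightest at 0 mM.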

Additional observations from a re-analysis of the deposited data

How the results depend on the processing

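Of 15 member calls (10 against 0 mM and 5 steps), 4 held in each of the 25 omissions of 1 array: Ptgs2 at 0.35, 2.1 and 2.8 mM and Acod1 at 2.1 mM. The other 11 were lost in at least 1 omission. Over the omissions the number of members called was 1 to 4 at 0.35 mM, 0 to 1 at 1.4 mM, 2 to 3 at 2.1 mM, 1 to 3 at 2.8 mM, 0 at 0.14, 0.7 and 3.5 mM, 4 to 6 by the F test, 0 to 4 from 0.14 to 0.35 mM and 0 to 3 from 2.8 to 3.5 mM. With array weights 2 members were called at 0.14 mM, 1 at 0.7 mM, 2 at 1.4 mM, 6 at 2.8 mM and 5 from 0.14 to 0.35 mM. Of all 45037 probe sets these weights called 8350, 7939, 9263, 14141 and 7463 in these comparisons, instead of 2, 60, 3519, 5357 and 1517. With spike level as a term 0 were called at 1.4, 2.1 and 2.8 mM and 1 from 0.14 to 0.35 mM. Over all probe sets that term left 17, 39 and 119 calls at those doses, and 512 instead of 1517 at the step from 0.14 to 0.35 mM. For that step 4 were called without dim probe sets (which left out Ass1 and Arg1), 5 with only its doses fitted and 4 with only arrays of the low spike level. At 1.4 mM 0 were called with only 0 and 1.4 mM fitted and with the probe set of largest variance. With the replicate number as a block 3 members were called at 0.35 mM, 1 at 1.4 mM, 2 at 2.1 mM, 2 at 2.8 mM and 5 by the F test. The block ended the calls of Ptges at 0.35 mM (adjusted p = 0.111) and 2.1 mM (0.0821) and no other member call; 5 of 24 arrays correlated best with their own number. Over all probe sets it called 950 at 0.35 mM instead of 2898. Uncalled differences changed sign. With spike level as a term Acod1 at 1.4 mM was -0.44, Nos2 at 1.4 mM -0.35, Ptges at 1.4 mM -0.078 and Ptges at 2.8 mM -0.026. With array weights Nos2 was -0.33 at 0.7 mM and -0.0060 at 1.4 mM. Over the omissions Nos2 ranged from -0.33 to 0.63 at 0.7 mM and from -0.25 to 0.47 at 1.4 mM, and Ptges from -0.14 to 0.53 and from -0.0074 to 0.68, in each case lowest without replicate 3 of the dose. With only low-level arrays Nos2 at 0.7 mM was -0.33 and Ptges -0.14. Called differences that changed sign with the probe set of largest variance were Azin1 at 1.4 mM (-0.11), Idh3g at 2.1 mM (0.20) and Nfkbia at 3.5 mM (0.35). With the probe set brightest at 0 mM, an alternative added after seeing the data, 2 members were called at 2.1 mM and 6 by the F test. The causes were not tested. Low signals limit what fold can be seen. At 0 mM Nos2 and Ptges were near 0, and Ass1 and Arg1 lay below 0 on all arrays of every dose. Doses from 1.4 mM have no array at the low spike level. Of 58 calls of other named genes, Arg2 left aside, 21 held in every omission.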
